A study of Mus musculus with 30 samples.

Results

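Small nucleolar RNA (snoRNA) and small Cajal body RNA (scaRNA) genes were described across RNA-seq libraries of tdTomato-tagged interneurons sorted from the medial prefrontal cortex of mice. The members were all rows of the deposited expression table whose gene symbol begins with Snord (C/D box), Snora (H/ACA box) or Scarna (Cajal body). There were 119 of them among 23993 genes: 74 C/D box, 36 H/ACA box and 9 Cajal body genes. The values are FPKM, fragments scaled to gene length and to the mapped fragments of the library.

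The mice were of the C57BL/6 strain, were 6 to 12 weeks old, and were heterozygous for the tdTomato reporter Ai9 and for Cre recombinase driven from Sst or Pvalb. The reporter stays on in every cell that has ever expressed Cre, so the tag follows lineage as well as present expression. The 24 libraries came from nonstressed Pvalb males (7), nonstressed Sst females (7), nonstressed Sst males (7) and Sst males after 14 days of chronic unpredictable stress (CUS, 3). Another 6 labelled libraries, from Pvalb females with and without stress and from stressed Sst females, are not analysed here. The study gives n in mice for the subtype comparison, but no source used here ties a library to an individual animal, so p-values measure the spread between these libraries. Titles were of 2 kinds. In 18 libraries (all Pvalb, all females and 4 male Sst controls) the title holds a short running number or none, and these are called numbered. In the other 6 (3 male Sst controls and all 3 CUS libraries) it holds a longer number that resembles a date, and these are called dated. The dated control SS04031R shares its title number with all 3 CUS libraries. The columns SST0-M and SST1-M hardly differed (their log2 ratio had an SD of 0.0212 over genes), nor did PV0-M and PV2-M (0.0170). Each pair was averaged and counted as 1 sample, which left 22 samples.

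Several libraries stood apart from their labels. PV1-M, PV4-M and PV5-M, which are labelled male, held 300.2 to 333 FPKM of Xist, whereas the other Pvalb libraries held 0.439 to 6.64. Sst itself reached 0 to 18.2 FPKM in the Sst libraries other than SST-F (49.3), and 12 microglia markers summed to 3648 to 11017 FPKM in the 24 libraries beside 6.26 to 68.3 FPKM for 10 interneuron markers. Pvalb was at 0.882 to 5.07 FPKM in the Pvalb libraries, in which Sst was higher (12.3 to 30.5 FPKM). Markers of the labelled cells were thus low, and the groups are called by their labels. FPKM totals were 276023 to 432075 in numbered and 681118 to 1311420 in dated libraries. Without the 119 genes they overlapped (264578 to 417019 and 316437 to 380938). Since these are sorted bulk samples, fewer cells of a type and less RNA per cell cannot be told apart in any value below.

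C/D box snoRNAs carry the C and D boxes, bind fibrillarin, and guide ribose methylation of ribosomal RNA. H/ACA box snoRNAs bind dyskerin and guide the conversion of uridine to pseudouridine. Relatives that reside in the Cajal body direct the same modifications to the spliceosomal RNAs. A few, such as U3, U8 and the Snord22 product, take part in cleavage of the ribosomal RNA precursor. In mammals most are cut out of introns of host genes, among them many genes for ribosomal proteins and translation factors and the Snhg noncoding genes, and most carry no poly(A) tail. The RNA of these libraries is labelled as poly(A) RNA and was treated to remove ribosomal RNA.

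Of the 119 genes, 118 were found in RefSeq on GRCm38.p6 (mm10), and 115 lay within another annotated gene. In GENCODE M1, 60 lay in an intron, 33 overlapped an exon of some transcript, 9 lay between genes and 17 were not listed. Rpl13a and Snhg12 held 4 members each. RefSeq annotates 7 members over part of a microRNA hairpin, and for 5 of them the shared stretch, read 5′ to 3′, is given here. Matches to the box motifs of C/D and H/ACA box RNAs are marked, and no motif particular to Cajal body genes was searched. Capitals mark the C box UGAUGA in Snord33 and the last ACA before the 3′ end in the Cajal body genes. In Snora34 they mark a match to the H box motif ANANNA. Each was searched on the strand of the gene.

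Snord33, bases 1 to 28 of 82, chr7:45126918-45126945, minus strand: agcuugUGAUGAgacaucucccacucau
Snora34, bases 1 to 73 of 118, chr15:98519762-98519834, minus strand: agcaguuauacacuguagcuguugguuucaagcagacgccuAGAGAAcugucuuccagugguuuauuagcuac
Scarna3a, bases 52 to 117 of 118, chr1:159340358-159340423, plus strand: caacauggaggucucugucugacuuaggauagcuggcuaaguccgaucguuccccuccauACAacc
Scarna3b, bases 61 to 124 of 124, chr12:80391614-80391677, minus strand: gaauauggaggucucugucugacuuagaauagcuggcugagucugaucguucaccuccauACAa
Scarna13, bases 209 to 273 of 275, chr12:105031077-105031141, minus strand: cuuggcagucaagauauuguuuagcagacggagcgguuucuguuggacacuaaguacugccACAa

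The C box of Snord33 began at its base 7, and the ACA of Scarna13, Scarna3a and Scarna3b was followed by 3, 4 and 1 bases of the gene. Over all 1005 mouse hairpins of the table, 2.69% held UGAUGA, 67.3% held ACA and 57.1% held ANANNA, so the last pair of motifs is common. Scarna3a and Scarna3b were identical at 58 of 64 aligned bases (90.6%), so reads from one could be placed on the other. The hairpin genes that share these bases with Snord33 (Mir5121), Scarna3a (Mir1843b) and Scarna13 (Mir3069) were listed at 0 in all 24 libraries, whereas Mir1291, which overlaps Snora34, was above 0 in 12 libraries. The FPKM of these 3 loci were thus listed under the snoRNA or scaRNA symbol alone.

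Whether a member had any value moved with its length. In total 61 of the 119 genes were listed at 0 in every library and 58 had a value in at least 1 library. None of the 37 members of 65 nt or less had a value, and none of the 236 microRNA and other genes of that length did. Of the 76 members under 100 nt, 19 were above 0 in some library and 4 of them in a numbered library. Of the 42 members of at least 100 nt, 39 were above 0 in some library. The longest member at 0 throughout was Snord118 (U8, 137 nt). The median annotated length was 68 nt for C/D box, 119.5 nt for H/ACA box and 118 nt for Cajal body genes, of which 52 of 74, 5 of 36 and 4 of 9 were at 0 in all libraries. Detection was not compared between classes at equal length. A value listed at 0 may mean that no estimate was made rather than that no fragment was seen, and the depth behind a value is unknown.

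**Figure D1:**
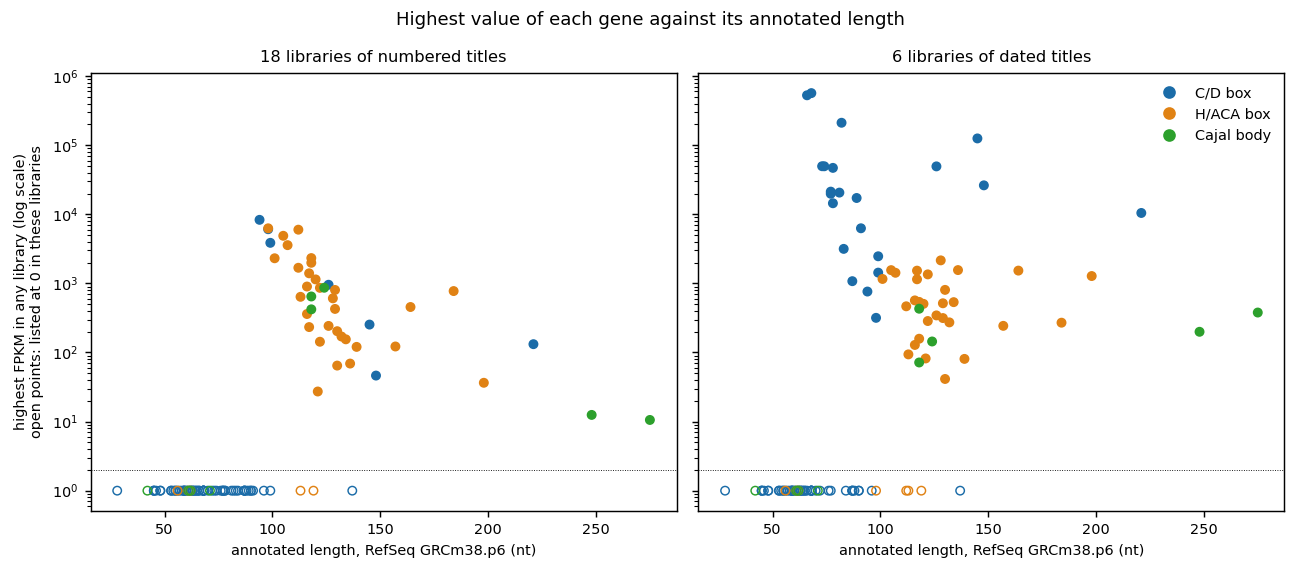
Highest FPKM of each of the 118 genes with a RefSeq length (log scale) against that length in nt, for the 18 numbered libraries (left) and the 6 dated libraries (right); open points below the dotted line were at 0 in those libraries. No gene of 65 nt or less had a value, members from 66 nt up to 91 nt had values in dated libraries alone, and among genes over 120 nt the C/D box genes of the dated libraries reached up to 125375 FPKM.

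The size of a value also moved with length. In SST4-M, Snora34 and Scarna3a, both of 118 nt, were listed at the same 287 FPKM, and Scarna8, of the same length, at 95.8 FPKM. In PV6-M, Snord67 and Snora68, both of 98 nt, were listed at 6085 FPKM. Among 339 pairs of genes of equal length in the same library, 66.1% stood in a ratio that was a multiple of 0.5 within 1%, as against 9.39% of 618 pairs whose lengths differed by 1 nt (ratios up to 6). The smallest value of any gene of at most 98 nt was 1178 to 22002 FPKM in the 14 numbered libraries with such a value, and that of any gene of at most 80 nt was 2835 to 11637 FPKM in dated libraries. A value near these in so short a gene may therefore rest on very few fragments, although how the FPKM were estimated is not known. Orders of members below are orders of listed FPKM, and levels of members of different length are not comparable.

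Of the genes named by their role, U3 (Snord3a), U13 (Snord13), Snord115, Snord44 and both U17 genes (Snora73a and Snora73b) are not rows analysed here. Snord118, the 3 Snord14 genes, the Snord116 genes, Snord47 (in Gas5), Snord49a, Snord49b, Scarna2, Scarna9, Scarna10 and Scarna17 were at 0 in all libraries. The Snord116 cluster, which is deleted in Prader-Willi syndrome and is highly expressed in neurons, therefore gave no value. Described below are 8 C/D box and 4 Cajal body genes of the role list together with the highest members of each class.

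In the share of all FPKM, the libraries fell into 2 sets by title. The 119 genes held 1.87% to 8.29% of the FPKM total (median 3.84%) in the 18 numbered libraries and 53.5% to 75.7% (median 58.0%) in the 6 dated ones. Among dated controls the share was 60.3% in SS04031R, 53.5% in SST040241L and 55.8% in SST04241LL. In CUS libraries it was 74.3% in SS04031LL, 75.7% in SS04031RL and 54.6% in SS04031RR. The male Sst controls thus stood on both sides of the gap, and the CUS libraries lay with the dated controls. The shares of numbered Pvalb males (2.59% to 8.29%), Sst females (1.87% to 6.22%) and Sst males (3.38% to 5.07%) overlapped.

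The classes differed in this. C/D box genes held 0.0534% to 1.99% of the total in numbered and 51.2% to 74.4% in dated libraries. Summed H/ACA box FPKM overlapped between the sets, 4774 to 21165 in numbered and 9616 to 16423 in dated libraries. So did summed Cajal body FPKM, 9.49 to 1202 and 336 to 938. In number of genes above 0, a numbered library had 2 to 5 C/D box, 9 to 22 H/ACA box and 1 to 5 Cajal body members, and a dated library had 12 to 17, 21 to 25 and 2 to 5.

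**Figure D2:**
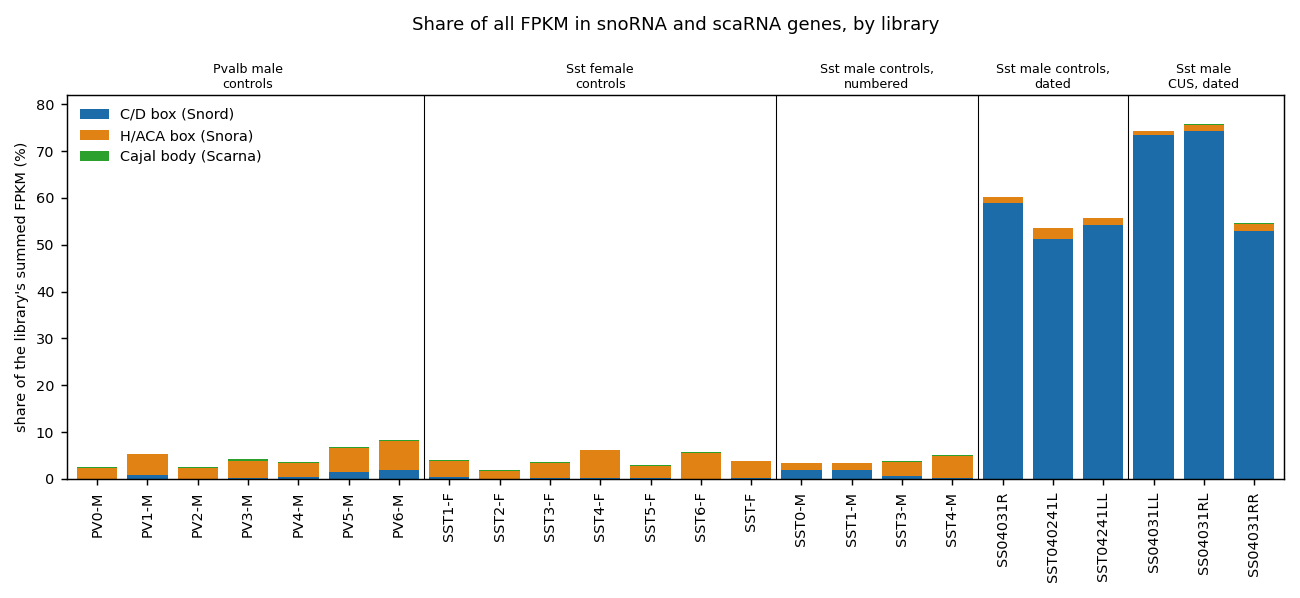
Share of each library's summed FPKM (%) in C/D box, H/ACA box and Cajal body genes, 1 bar per library, grouped by label and kind of title. Dated libraries reached 53.5% to 75.7%, nearly all of it C/D box, and numbered libraries stayed at or below 8.29%.

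A few genes made up most of the C/D box sum. The highest member held 32.5% to 60.5% of all member FPKM in a dated library. In 4 dated libraries this was Snord33. In SS04031LL it was Snord100, a member of 68 nt in an intron of Rps12, at 567597 FPKM, and it was 0 in the other 23 libraries. In SS04031RL it was Snord34 (66 nt) at 527964 FPKM, again with 0 in the other 23. These 2 shortest members with a value each rested on 1 library, and without the highest member of each library the dated shares were 42.01% to 59.3%. Counted by members of at least 140 nt, the share was 0.0746% to 0.451% in numbered and 7.54% to 17.2% in dated libraries. In dated libraries these members summed to 95259 to 165328 FPKM, of which Snord15b (145 nt) alone held 71881 to 125375 FPKM.

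**Figure D3:**
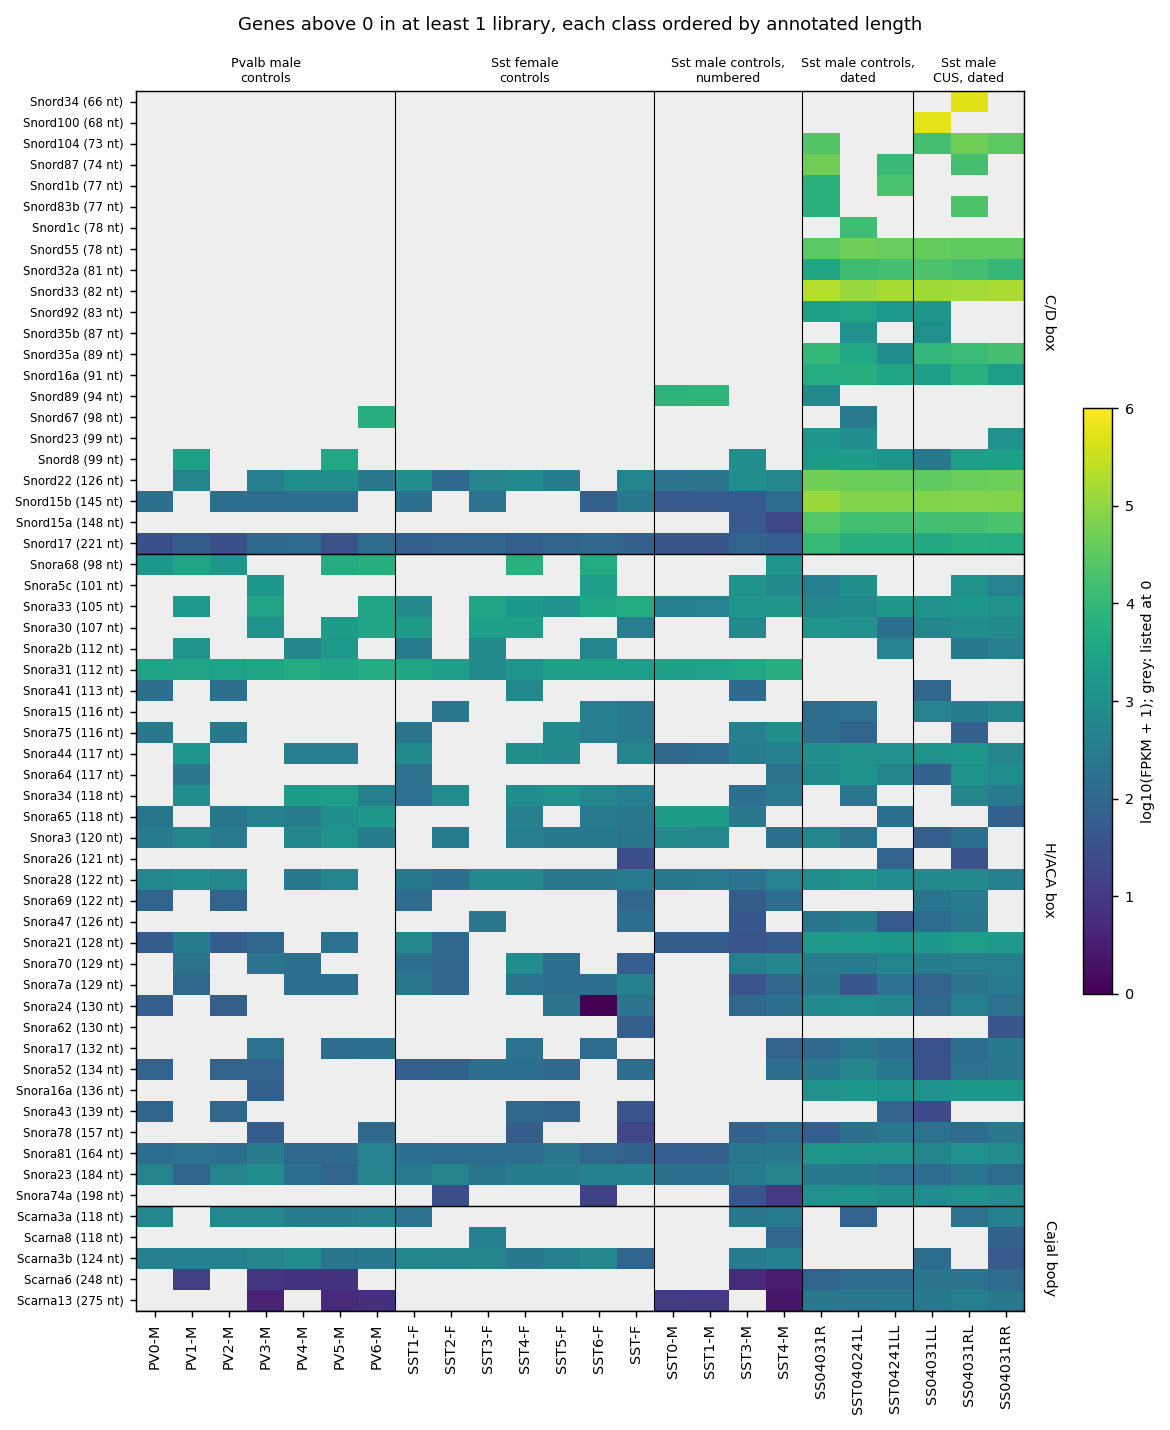
log10(FPKM + 1) of the 58 genes above 0 in some library (rows, ordered by length within each class) in the 24 libraries (columns); grey cells are listed at 0. C/D box genes under 94 nt are grey in all 18 numbered libraries, and Snora31 and Snora68 are grey in all 6 dated ones.

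Dated were compared with numbered male Sst controls to ask how members differed between unstressed libraries that carry the same group label (3 against 3 samples, limma, two-sided, Benjamini-Hochberg adjustment over 14230 genes). Of 55 members tested, 16 were higher in dated controls and 1, Snora31, was lower at an adjusted p under 0.05. Over all genes 4.11% were called (1.81% higher and 2.3% lower), and 30.9% of the members tested were. By class, 10 of 20 C/D box genes were called higher and none lower, 4 of 30 H/ACA box genes higher and 1 lower, and 2 of 5 Cajal body genes higher. Of the 17, 8 were at 0 in every sample of a group, so they passed the filter through the other group alone and their p-values, which rest on a group with no spread, are not given. The other 9 were all higher in dated controls, among 30 members with a value in both groups (30%, beside 3.93% of 14031 such genes). With 1 library left out, the genes called in all ranged from 54 (without SST040241L) to 1962 (without SST0-M and SST1-M) and the members from 13 (without SS04031R) to 21 (without SST0-M and SST1-M). The other 64 members were at 0 in all samples compared, and no member with a value was lost to the filter on low values. The median difference of mean log2(FPKM + 1) was 8.24 for C/D box, 2.37 for H/ACA box and -2.20 for Cajal body genes beside -0.0042 for all genes tested. The C/D and H/ACA box medians hold genes at 0 in every numbered sample. The Cajal body median was the value of Scarna8, at 0 in every dated control. Of the numbered male samples, SST4-M alone had a value for it (95.8 FPKM). Among the 5 Cajal body genes, 2 were higher and 3 lower in dated controls. The medians so depend on the pseudocount (7.19, 1.89 and -1.44 with a pseudocount of 5). Kind of title, any batch it may mark, and animal cannot be told apart here.

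Snord33 had the highest median FPKM of all members in dated libraries, and it lies in Rpl13a with Snord32a, Snord34 and Snord35a. Rpl13a encodes a protein of the large ribosomal subunit, and its intronic snoRNAs are known from work on lipotoxic and oxidative stress in cultured cells. Snord33 (chr7:45126864-45126945, 82 nt) was at 211323, 118482 and 166393 FPKM in the dated controls SS04031R, SST040241L and SST04241LL, and at 142767, 144600 and 169314 FPKM in the CUS libraries SS04031LL, SS04031RL and SS04031RR. It was listed at 0 in all 18 numbered libraries. The dated and numbered groups did not overlap.

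Snord32a (81 nt) was listed at 3404, 12723 and 16359 FPKM in the dated controls and 20609, 16686 and 10066 FPKM in the CUS libraries, taken in the same order. Snord35a (89 nt) was listed at 10037, 3824 and 832 FPKM and at 9367, 12517 and 17221 FPKM. Both were at 0 in every numbered library. Within each dated library Snord33 was the higher of the like-sized Snord33 and Snord32a. Rpl13a itself was at 227 to 324 FPKM in dated and 59.9 to 313 FPKM in numbered libraries, and did not pass the test between the male control sets (log2 difference 0.83 ± 0.50 SE, adjusted p = 0.36, limma). The 4 Rpl13a members share a host, so they are not independent of each other.

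Snord55 (78 nt) and Snord16a (91 nt, in Rpl4) were also at 0 in all numbered libraries. Snord55 was listed at 28653, 46982 and 39916 FPKM in the dated controls and 39177, 34230 and 34485 FPKM in the CUS libraries. Snord16a was listed at 5098, 5573 and 3362 FPKM and at 2324, 6275 and 2322 FPKM. Snord92, named here after its values were seen, was listed at 1734 to 3159 FPKM in the dated controls and at 0 in all numbered libraries. Snord104 (73 nt) was at 24318, 0 and 0 FPKM in the dated controls and at 16096, 49649 and 30740 FPKM in the CUS libraries. Across the table, 5 members and 0.162% of the 18466 genes with a value were at 0 in all numbered and above 0 in all dated libraries. The 5 were Snord33, Snord32a, Snord35a, Snord55 and Snord16a.

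Longer C/D box genes, which had values in libraries of both kinds, differed as well. Snord17 (chr2:144265982-144266202, 221 nt, in an intron of the sorting nexin gene Snx5) is the longest of the class and guides methylation of large subunit ribosomal RNA. It was listed at 10455, 6043 and 6176 FPKM in the dated controls and 4388, 5872 and 5058 FPKM in the CUS libraries. In the 18 numbered libraries it lay between 28.3 and 132 FPKM with a median of 65.01. The log2 difference between the male control sets was 7.01 ± 0.42 (SE, adjusted p = 0.00026, limma).

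Snord15a and Snord15b, 148 and 145 nt, lie in the ribosomal protein gene Rps3 (Snord15b at chr7:99479563-99479707). Snord15b was listed at 125375, 73596 and 71881 FPKM in the dated controls and 72287, 76661 and 72948 FPKM in the CUS libraries, and at 0 to 253 FPKM (median 98.1) in numbered libraries. Its log2 difference was 10.27 ± 0.49 (adjusted p = 5.8e-05, limma). Snord15a was listed at 26247, 15568 and 17373 FPKM in the dated controls, 16440, 17442 and 20454 FPKM in the CUS libraries, and above 0 in 2 numbered libraries, SST3-M (46.3 FPKM) and SST4-M (18.9 FPKM). It was called (adjusted p = 0.010, limma), but not with no filter or without SS04031R. Snord15b was higher than the similarly long Snord15a in each dated library. Rps3 was at 33.7 to 56.8 FPKM in the dated controls and 56.7 to 197 FPKM in the numbered male samples (adjusted p = 0.18, limma).

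Snord22 (chr19:8725866-8725991, 126 nt) lies in the noncoding host Snhg1. Its values were 49383, 43893 and 45219 FPKM in the dated controls, 34253, 43248 and 46888 FPKM in the CUS libraries and 0 to 956 FPKM (median 421) in numbered libraries. The log2 difference between male control sets was 6.62 ± 0.58 (adjusted p = 0.0027, limma). Snhg1 went the other way, at 12.9 to 25.6 FPKM in the dated controls and 44.98 to 98.5 FPKM in the numbered male samples (log2 difference -1.95 ± 0.39, adjusted p = 0.041, limma).

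Among members of at least 120 nt the classes can be set side by side, although their lengths still differed. All 4 C/D box genes of at least 120 nt with a value (126 to 221 nt) were higher in every dated than in every numbered library. Of 18 such H/ACA box genes (120 to 198 nt) 4 were, and of 3 Cajal body genes (124 to 275 nt) 2 were. Snord118 (137 nt), at 0 throughout, is not counted. Over all lengths this held for 15 of the 58 members with a value (25.9%) beside 5.29% of all 18466 genes with a value, and the reverse held for 1 member beside 4.91%. Other noncoding genes were taken by symbol for microRNA, spliceosomal and other small RNAs. Among 115 of these with a value, 6 (5.22%) were higher in every dated library and 3 were lower in every dated library. In numbered libraries alone 60 were above 0. The symbols also took in long genes, such as Mirg (14478 nt) and Mir22hg (5152 nt). The 6 include the RNA of ribonuclease P, Rpph1 (15561 to 29078 as against 16.9 to 524 FPKM), and that of ribonuclease MRP, Rmrp (4089 to 6270 as against 17.01 to 190.0 FPKM). The others were Rnu12 (787 to 942 as against 0 to 121 FPKM), Vaultrc5 (67.3 to 170 as against 0 to 2.39 FPKM), Mir6236 and Mir1940. Of the genes not named as microRNA, Rnu11, Terc and Rprl3 did not differ in this way.

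**Figure D4:**
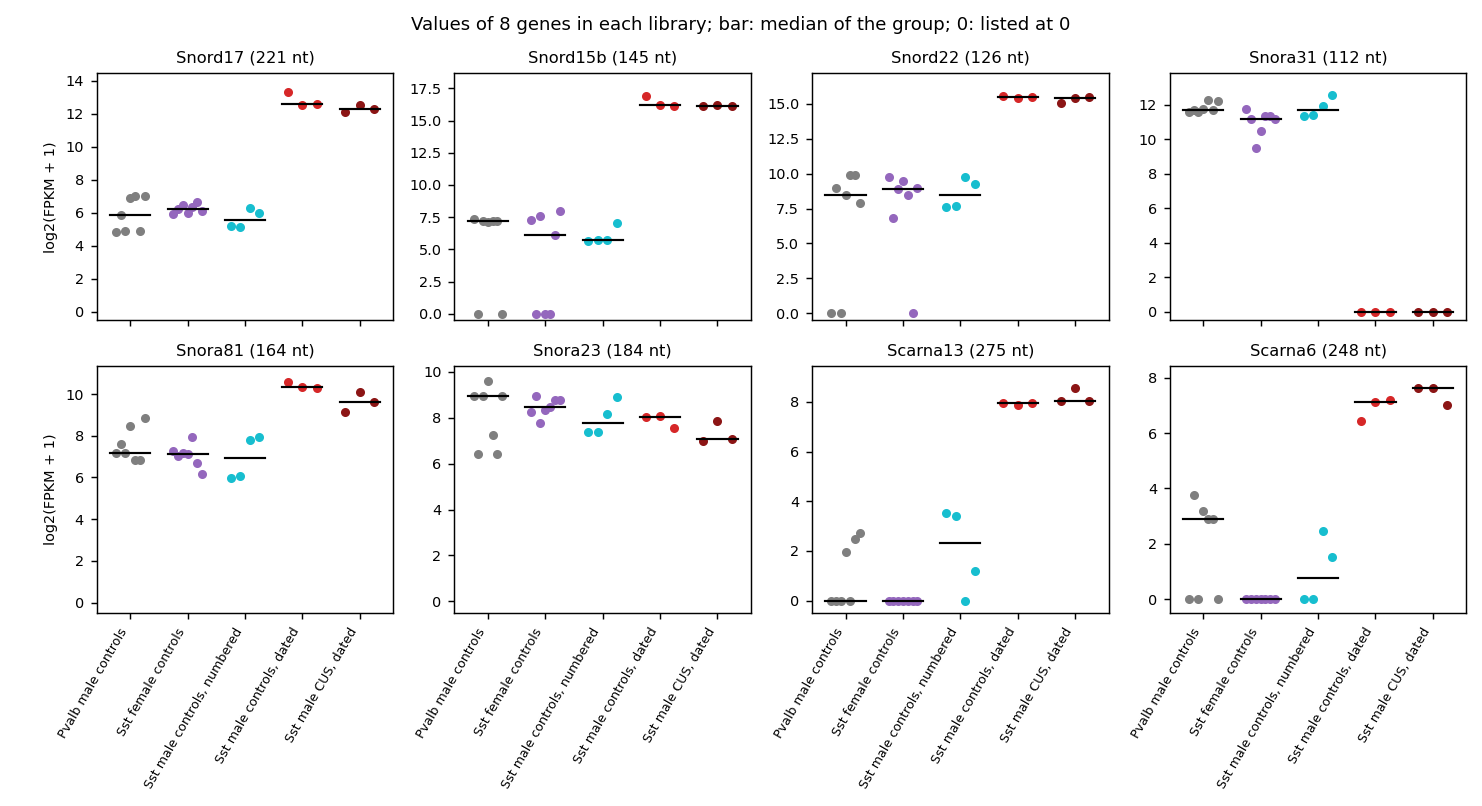
log2(FPKM + 1) of 8 genes in each library (points) by label and kind of title, with the median of each group as a bar; 0 marks genes listed at 0. Snord17, Snord15b, Snord22, Snora81, Scarna13 and Scarna6 were higher in all dated libraries, Snora31 was at 0 in them, and Snora23 overlapped.

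Among the H/ACA box genes, 4 were called higher, of which Snora16a and Snora21 were called under all 15 settings. Snora16a was at 0 in every numbered male sample, so its calls rest on a group with no spread. Snora16a (136 nt, in Snhg12) was listed at 1040, 1558 and 1046 FPKM in the dated controls and 1144, 1558 and 1558 FPKM in the CUS libraries, and was above 0 in PV3-M alone of the numbered libraries (69.1 FPKM). Snora21 (128 nt, in the ribosomal protein gene Rpl23) was at 1652, 1645 and 1581 FPKM and at 1598, 2154 and 1654 FPKM, and at 0 to 608 FPKM in numbered libraries. The log2 difference of Snora21 between male control sets was 5.04 ± 0.29 (adjusted p = 0.00021, limma).

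Snora81 (164 nt) lies in Eif4a2, which encodes an RNA helicase of translation initiation. It was listed at 1531, 1285 and 1235 FPKM in the dated controls, 564, 1087 and 799 FPKM in the CUS libraries and 62.2 to 455 FPKM in numbered libraries, a log2 difference of 3.14 ± 0.54 between male control sets (adjusted p = 0.026, limma). This call was lost with no filter on low values and in 5 of 6 fits with a library left out, all but that without SST0-M and SST1-M. Snora74a (198 nt, in Snhg4), named after its values were seen, was listed at 954 to 1277 FPKM in the dated controls and at 0 to 36.4 FPKM in numbered libraries (adjusted p = 0.022, limma). Its call was lost with a pseudocount of 0.1, with no filter, and without SS04031R, SST040241L, SST04241LL or SST4-M. Snora44 (117 nt), which shares the host Snhg12 with Snora16a, was listed at 967 to 1219.7 FPKM in the dated controls and 122 to 415 FPKM in the numbered male samples, which did not overlap but missed the threshold (adjusted p = 0.064, limma). Snhg12 itself was at 8.04 to 17.7 FPKM in the dated controls and 44.4 to 203 FPKM in the numbered male samples (adjusted p = 0.055, limma).

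Snora31 showed the opposite pattern. It lies in an intron of Tpt1 (chr14:75847923-75848034, 112 nt), which encodes the translationally controlled tumor protein. It was listed at 2611 and 2739 FPKM in the near-identical male Sst pair, at 3969 FPKM in SST3-M and at 5989 FPKM in SST4-M, at 711 to 3448 FPKM in Sst females and at 3040 to 5034 FPKM in Pvalb males. In all 6 dated libraries it was at 0. Tpt1 was at 182 to 1635 FPKM in numbered and 542 to 730 FPKM in dated libraries and did not pass the test (log2 difference -0.02 ± 0.59, adjusted p = 0.99). Among genes with a value, 5, or 0.0271%, were at 0 in all dated and above 0 in all numbered libraries. Snora31 was the highest member in 10 of the 18 numbered libraries. Snora68 (98 nt), named after its values were seen, was likewise at 0 in all dated libraries, but it was above 0 in 8 of the 18 numbered ones.

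Snora23 (184 nt, in the importin gene Ipo7), Snora81 and Snord17 were the 3 members above 0 in all 24 libraries. Snora23 was listed at 261, 269.9 and 186 FPKM in the dated controls, 125, 228 and 133 FPKM in the CUS libraries and 83.2 to 774 FPKM (median 339) in numbered libraries. The sets overlapped. Snora33 (105 nt, in Rps12), the second highest H/ACA box gene of numbered libraries by median (1331 FPKM), ranged from 0 to 4885 FPKM there and from 555 to 1555 FPKM in dated libraries. Snora34 and Snora3, with medians of 334 and 276 FPKM in numbered libraries, ranged from 0 to 2324 and 0 to 1142 FPKM there and also overlapped the dated values. The spread within a group was wide at these lengths.

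Cajal body genes split by length. Scarna13 (chr12:105031075-105031349, 275 nt, in Snhg10) and Scarna6 (chr1:87784571-87784818, 248 nt, in an intron of the autophagy gene Atg16l1) guide modification of spliceosomal RNAs and are the longest members. Scarna13 was at 249.6, 235 and 245 FPKM in the dated controls, 264, 379 and 258 FPKM in the CUS libraries and 0 to 10.6 FPKM in numbered libraries (log2 difference between male control sets 6.38 ± 0.77, adjusted p = 0.011, limma). Scarna6 was at 86.2, 138 and 146 FPKM, at 197, 199 and 127 FPKM, and at 0 to 12.5 FPKM in numbered libraries (5.59 ± 0.60, adjusted p = 0.0069, limma). All dated values of both genes lay above all numbered values. Both calls were lost with no filter on low values, and that of Scarna13 without SS04031R.

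Scarna3b (124 nt, in Dcaf5) was above 0 in 16 of 18 numbered libraries, at up to 865 FPKM, and at 0 in the 3 dated controls, with 144, 0 and 50.9 FPKM in the CUS libraries. It did not pass the test (adjusted p = 0.19, limma). Its near copy Scarna3a ranged from 0 to 646 FPKM in numbered and 0 to 430.0 FPKM in dated libraries. Scarna8 (118 nt) was above 0 in SST3-F, SST4-M and SS04031RR (421, 95.8 and 71.7 FPKM).

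Across members and hosts, direction was mixed. For 53 pairs of a member with a value and its enclosing gene, the medians of both were higher in dated than in numbered libraries in 12, the member was higher and the host lower in 22, the member was lower and the host higher in 3, and both were lower in 4. In the other 12 the member's medians were equal at 0. Of 78 enclosing genes tested between the male control sets, 1 was higher (the translation initiation factor gene Eif4g1) and 9 were lower, among them Gas5, Snhg1 and Snhg4. These calls made up 12.8% beside 4.11% of all genes (1.81% higher and 2.3% lower). The median log2 difference of the 78 was -0.38 beside -0.0042 for all genes. Under CUS none of 77 was called by limma beside 0.00705% of all genes, and 0 had an unadjusted p under 0.05 beside 6.74%.

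CUS was compared with the dated male controls, the controls that share the kind of title (3 against 3, 14186 genes, limma). Of these controls only SS04031R shares the title number of the CUS libraries, so for the others stress and title number cannot be told apart. The log2 ratio of SS04031R to SST040241L and to SST04241LL had an SD of 0.656 and 0.635 over genes, beside 0.267 between the latter. None of 56 members was called, and 1 gene of all tested was (0.00705%). At an unadjusted p under 0.05 there were 4 members (7.14%) and 6.74% of all genes. The median log2 difference was -0.20 for 22 C/D box and -0.11 for 29 H/ACA box genes beside 0.0023 for all genes. For 5 Cajal body genes it was 2.06 (1.31 with a pseudocount of 5), the value of Scarna8. That gene was at 0 in every dated control and above 0 in SS04031RR alone of the CUS libraries (71.7 FPKM). Scarna13 and Scarna6, above 0 in every library of both groups, differed by 0.28 and 0.50. Scarna3a and Scarna3b, at 0 in some libraries of each group, differed by 3.32 and 4.29. In 7 members (12.5%, beside 18.7% of all genes) the groups did not overlap. In all genes 9.33% did not overlap and were higher, and 9.39% lower. Scarna13 (258 to 379 as against 235 to 249.6 FPKM) and Snora15 (339 to 567 as against 0 to 173 FPKM) were higher under CUS. Snord17 (4388 to 5872 as against 6043 to 10455 FPKM), Snora81 (564 to 1087 as against 1235 to 1531 FPKM), Snora24 (97.3 to 378 as against 556 to 805 FPKM), Snora28 (421 to 684 as against 793 to 1350.4 FPKM) and Snord92 (1520.2, 0 and 0 as against 1734 to 3159 FPKM) were lower. Snora15, Snora24, Snora28 and Snord92 are named because they make up this count. The adjusted p of the 7 was 0.65 to 0.68 (limma).

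For Snord17 the log2 difference was -0.53 ± 0.30 (SE), for Snora81 -0.77 ± 0.29, for Scarna13 0.28 ± 0.21 and for Snora24 -1.87 ± 0.47. Snord35a, with a log2 difference of 1.99 ± 0.84, had groups that overlapped through the dated control SS04031R. Oligodendrocyte markers summed to 1600.3 to 1967 FPKM under CUS and 391 to 1284 FPKM in the dated controls, and astrocyte markers to 1817 to 2088 and 504 to 1258 FPKM. Endothelial markers summed to 113 to 184 and 16.3 to 100.3 FPKM, and microglia markers to 3897 to 4667 and 4900.3 to 11017 FPKM, so that none of these 4 sums overlapped. Their part in these values was not tested.

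When the numbered male controls were taken instead, CUS libraries differed from them in 17 members that were higher and 1 that was lower among 55 tested (32.7%, beside 16.1% of all genes). This comparison shares the numbered controls with that of dated against numbered controls. The count of members called for CUS was thus 0 or 18 according to which controls were used, and against all male controls or controls of both sexes it was 0.

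Female and numbered male Sst controls were compared to ask whether members differed by sex (7 against 3 samples, 14443 genes, limma). None of 41 members was called beside 3.41% of all genes, and 4 members (9.76%) had an unadjusted p under 0.05 beside 24.3% of all genes. These were Snora31, Snord15a, Scarna6 and Scarna13. Snora31 was listed at 711 to 3448 FPKM in females and 2675 to 5989 FPKM in the male samples (log2 difference -1.002 ± 0.44, adjusted p = 0.19, limma). Snord15a, Scarna6 and Scarna13 were at 0 in all 7 females and above 0 in 2 of 3 male samples at up to 46.3, 4.54 and 10.0 FPKM. These 3 of the 4 members passed the filter through the male samples alone. Their p-values rest on a group with no spread and are not given. In no member were the groups free of overlap, beside 9.73% of all genes.

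Sst and Pvalb controls of numbered titles were compared for differences between interneuron subtypes (10 against 6 samples, 14483 genes, limma). None of 43 members was called beside 10.2% of all genes, and 2 (4.65%) had an unadjusted p under 0.05 beside 27.6% of all genes. Both were Cajal body genes. Scarna3a was above 0 in 6 of 7 Pvalb libraries at up to 646 FPKM and in 3 of 11 numbered Sst libraries at up to 287 FPKM (log2 difference -4.99 ± 1.90, adjusted p = 0.10, limma). Scarna6 was above 0 in 4 of 7 and 2 of 11, at up to 12.5 and 4.54 FPKM (-1.72 ± 0.56, adjusted p = 0.057). Scarna3b, which is above 0 in all 7 Pvalb and all 7 female Sst libraries, was listed at 217 to 865 and 82.6 to 601 FPKM. In the numbered male Sst libraries it was at 0 in SST0-M and SST1-M, and at 307 and 438 FPKM in SST3-M and SST4-M. It was not called between subtypes (log2 difference -1.02 ± 1.16 SE, adjusted p = 0.61, limma). The Sst group mixes sexes and 3 Pvalb libraries hold Xist against their label. The share of all genes called depended on this choice of samples. With male Sst controls alone 13 of 14253 genes were called, and without those 3 Pvalb libraries 9 of 14467. Both fits had fewer samples, and 0 members were called in either.

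**Figure D5:**
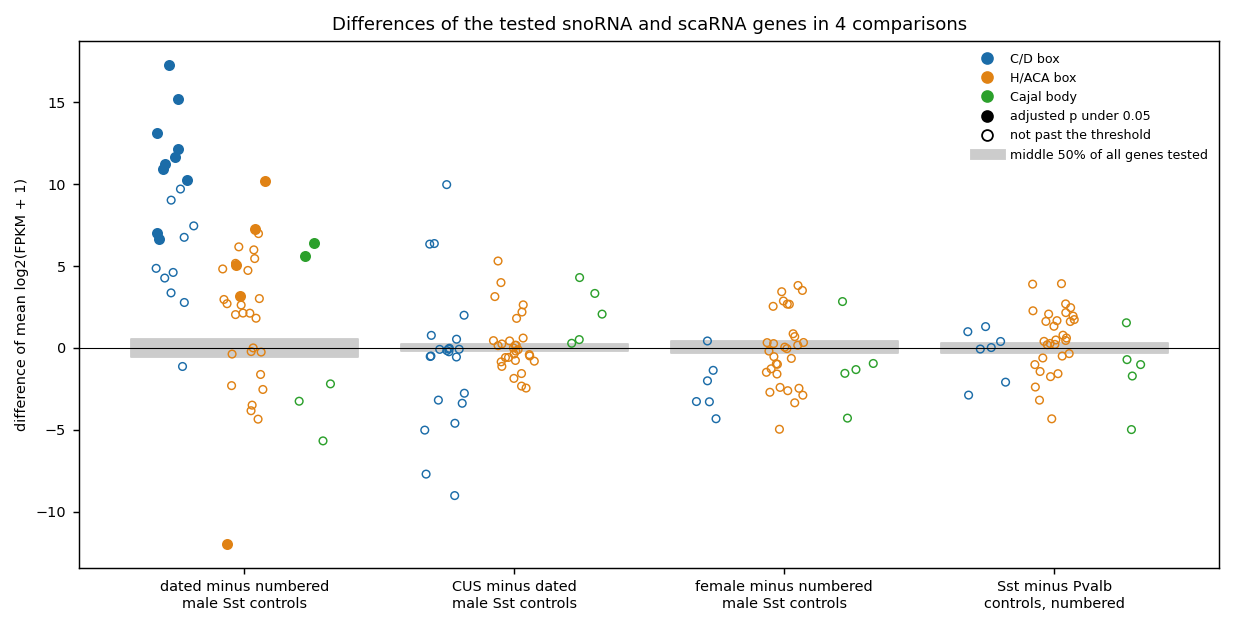
Difference of mean log2(FPKM + 1) of each tested gene in 4 comparisons, by class; filled points passed an adjusted p of 0.05 in limma, open points did not, and the grey band is the middle 50% of all genes tested. Of 55 members 17 were called between dated and numbered male Sst controls and none in the other 3 comparisons, and differences of genes at 0 in a whole group depend on the pseudocount.

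Genes for the proteins that bind, assemble and process these RNAs were called at shares near those of all genes. These were 2.94% beside 4.11% between dated and numbered controls and 8.82% beside 10.2% between subtypes. All 34 in 6 lists (core proteins of C/D and of H/ACA particles, assembly factors, Cajal body and cap, processing, and the U3 particle) were tested in each comparison. Between dated and numbered male controls 1 was called, Naf1, an assembly factor of H/ACA particles (6.44 to 8.17 as against 0.448 to 1.97 FPKM, log2 difference 2.04 ± 0.39, adjusted p = 0.037, limma). The median log2 difference of the 34 was 0.11 beside -0.0042 for all genes. Fibrillarin (Fbl) was at 19.7 to 30.2 FPKM in the dated controls and 26.2 to 33.7 FPKM in the numbered male samples, and dyskerin (Dkc1) at 4.52 to 4.91 and 1.44 to 8.23 FPKM. In the CUS comparison and the comparison by sex none of the 34 was called by limma, with 1 and 7 at an unadjusted p under 0.05 (beside 6.74% and 24.3% of all genes). Between subtypes 3 were called. Rpap3, an assembly factor, was higher in Sst (log2 difference 0.71 ± 0.17 SE, adjusted p = 0.017), while the assembly factor Znhit6 (-0.58 ± 0.17, adjusted p = 0.037) and the C/D core protein gene Nop56 (-0.40 ± 0.11, adjusted p = 0.036) were lower (limma, 10 against 6 samples).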

How the data were processed

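RNA of tdTomato-positive cells sorted from medial prefrontal cortex was sequenced as 75-base pairs, and trimmed reads under 45 bases were discarded by the authors, per their methods. The deposited FPKM table of 24 libraries was used. The labels list TopHat2, Cufflinks, Cuffdiff and mm10, whereas the methods describe mm9 with TopHat2 and mm10 with HISAT2 and StringTie. The methods also state that batch effects were removed with ComBat. Which of these tools made the table, and whether its values are the corrected ones, is not given in the sources used here. FPKM carries no counts, so depth is unknown. The number of libraries limits precision, and no counting interval was computed.

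Near-identical libraries were averaged. Genes with a mean above 0.4 FPKM in the compared samples were tested on log2(FPKM + 1) with limma 3.58.1 in R 4.3.3 (eBayes with a robust trend). Two-sided p-values were adjusted by Benjamini and Hochberg's method across the whole tested table, and called at 0.05. On simulated data with log2 changes of 2 and 4, the step recovered 33% and 84% (dated against numbered controls, 14230 genes), 83% and 97% (CUS, 14186), 86% and 98% (sex, 14443) and 93% and 99% (subtype, 14483). The changed genes were drawn from all those tested, with normal noise. Many members move between 0 and large values, and recovery among members was not measured.

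The members and lists were chosen with earlier results of these data known. Named were members with a known role, the 5 highest by median per class and kind of title, and the 5 largest called rises and falls without overlap per comparison. Alternatives were other pseudocounts and filters, common totals, separate near-identical libraries, other controls, each library left out and a replicate block. Of 30 labelled samples, 6 are not analysed here. Coordinates, lengths and sequences are from RefSeq on GRCm38.p6, and strand and introns from GENCODE M1 (NCBIM37).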

Additional observations from a re-analysis of the deposited data

How the results depend on the processing

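Between dated and numbered male controls, 17 members were called, 12 (no filter) to 22 (near-identical libraries kept separate) under the alternatives, and 13 to 21 with 1 library left out. Of the 17, 12 were called under all 15 settings. These include all 8 members at 0 in every sample of a group, whose calls rest on a group with no spread. Of the 9 with a value in both groups, Snora21, Snord15b, Snord17 and Snord22 were called throughout. The other 5 of these 9, Snora74a, Snora81, Snord15a, Scarna13 and Scarna6, were lost under some setting. Genes called in all went from 585 to 37 with no filter and to 54 to 1962 with a library left out. With a common total the median of all genes moved to -0.89 and 4861 genes were called, with 16 members higher and 1 lower.

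For CUS against dated controls the count of 0 became 1 with a common total (Snora24), 18 with numbered controls, and 0 to 1 with a library left out (Snord92 without SS04031LL, Scarna3b without SS04031RL, Snora69 without SS04031RR, Snord104 without SS04031R, Snord1b without SST040241L). Each member named for a library left out was at 0 in a whole group of that fit. For sex it became 1 with either common total (Snord15a), 1 with near-identical libraries kept separate (Scarna13), 5 with all male controls (1 higher and 4 lower) and 0 to 2 with a library left out (Snord15a without SST-F, Scarna13 without SST3-M, Scarna6 and Snord15a without SST0-M and SST1-M). The 5 called with all male controls, which include the dated ones, were Scarna13, Scarna3b, Scarna6, Snord15a and Snord8. All of these but Scarna3b were at 0 in every female, so calls of them by sex rest on a group with no spread. For subtype it became 1 with a pseudocount of 5 (Scarna6), 1 with near-identical libraries kept separate (Scarna3a), and 0 to 1 with a library left out (Scarna6 without SST3-M, SST4-M, PV6-M or the pair PV0-M and PV2-M). The cause of these changes was not tested.

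The median share was 46.4% in dated libraries without the highest member. As a share of rows above 0.4 FPKM, members made up 0.135% in numbered and 0.282% in dated libraries.

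With the replicate number as a block, 0 members were called by sex or by subtype (11 and 10 genes in all). The same-numbered libraries without the block, a choice made after seeing the data, gave 24 and 10 genes. Deviations of same-numbered libraries correlated at -0.0395 to 0.0693, and those of differently numbered ones at -0.0589 to 0.0497. The deviations are from means of few libraries, so they cannot show whether a shared number marks a pairing. No paired analysis was possible for the other comparisons because their groups share fewer than 2 numbers (the title number of SS04031R recurs in all 3 CUS libraries, and no other dated control carries it).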
